A study of Mus musculus with 3 samples.

Results

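The 10 *Sox* genes described here encode transcription factors that act in the early embryo, and they were chosen by name, with earlier results of these data known. *Sox1*, *Sox2*, *Sox3*, *Sox4*, *Sox7*, *Sox9*, *Sox10*, *Sox11*, *Sox17*, and *Sox18* were all found in the deposited table, which holds 30854 gene symbols. RNA came from the embryonic region of wild-type mouse embryos at the early headfold (EHF) stage, separated from the extraembryonic region by bisection, and was hybridized to 3 Illumina Mouse-6 bead arrays. The arrays, labelled replicates 1, 2, and 3, form a single group with no mutant, treatment, or second stage, so comparisons were limited to signal against array background and to one array against another. The labels give the strain as Cd-1 whereas the paper names ICR, and whether an array holds 1 embryo or a pool is not settled by either. Nothing in them says that the replicates came from separate litters, so the spread between arrays may be partly technical.

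SOX proteins share an HMG box related to that of SRY, which binds the minor groove of DNA and bends it, and they are sorted into groups by sequence. Group B1 (*Sox1*, *Sox2*, *Sox3*) is known for pluripotent cells and the neural plate, and group C (*Sox4*, *Sox11*) for progenitors in many tissues. Group F (*Sox7*, *Sox17*, *Sox18*) is known for endoderm, endothelium, and blood, and group E (*Sox9*, *Sox10*) for neural crest, cartilage, and other lineages. *Sox17* is required for the definitive endoderm and was the gene mutated in the study, although no mutant was hybridized.

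For every symbol and array the table gives a log2 signal averaged over probes, the beads read, and a detection p-value. For 1 probe this p is the fraction of negative controls whose signal equalled or exceeded that of the probe. A symbol was counted as detected where this p was under 0.01 on all 3 arrays. By this rule 3 of the 10 genes were detected, *Sox7*, *Sox9*, and *Sox17*, against 20.6% of all symbols. As a second measure, signals were background-corrected, quantile normalized, and expressed as a log2 level above the background level of the same array, which is the lowest level of a detected symbol with 1 probe. The one-sided limma test of that level called 6 of the 10, *Sox2*, *Sox4*, *Sox7*, *Sox9*, *Sox11*, and *Sox17*, against 25.7% of all symbols. *Sox1*, *Sox3*, *Sox10*, and *Sox18* were called by neither measure. Both counts rest on 10 genes picked for their roles in the embryo. The brightness of a probe also depends on how well it hybridizes, so no order of levels between genes is given, and a low signal can come from few expressing cells as well as from little RNA per cell, which cannot be told apart in whole tissue.

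**Figure D1:**
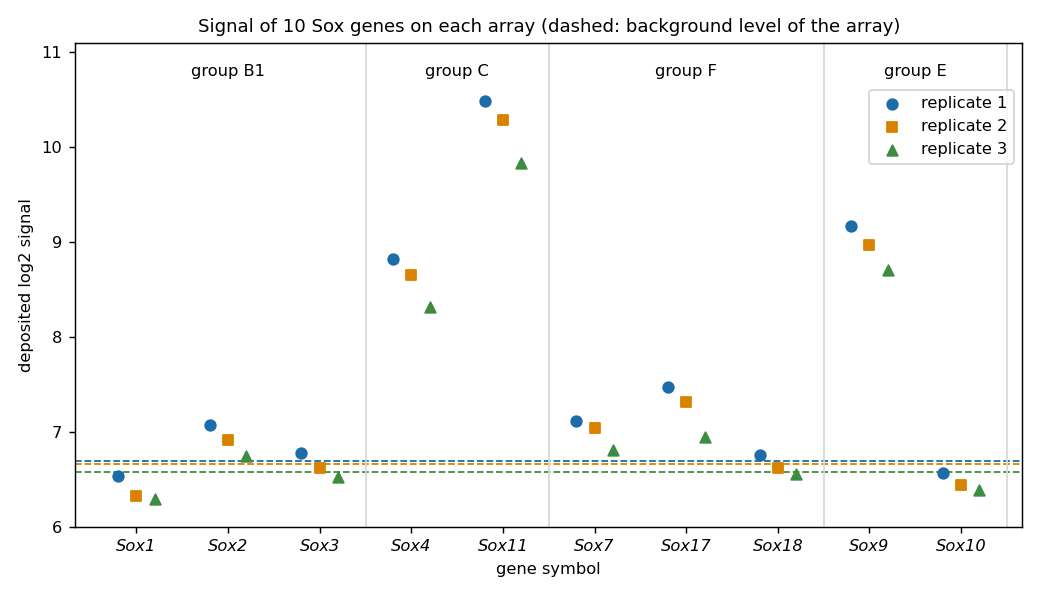
Deposited log2 signal (vertical axis) of the 10 *Sox* genes (horizontal axis, by SOX group) on replicates 1, 2, and 3, with the background level of each array as a dashed line of the same colour, at 6.69, 6.66, and 6.58. *Sox2*, *Sox4*, *Sox7*, *Sox9*, *Sox11*, and *Sox17* lie above the line of their array on all 3 arrays, and every gene has its highest signal on replicate 1 and its lowest on replicate 3.

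Among the group B1 genes only *Sox2*, which maintains pluripotency in the epiblast and marks the neural plate, was above background. Its log2 signals were 7.07, 6.92, and 6.75 on replicates 1, 2, and 3, where the background levels were 6.69, 6.66, and 6.58. All 3 arrays were thus above their background, by 0.38, 0.26, and 0.17. After normalization its level was 0.76 ± 0.17 above background on the log2 scale (SD, n = 3), with an adjusted p from limma of 1.45e-06. The SD of every level given here includes the shift of the normalized background level between arrays, from 4.68 to 4.81 and 5.08. It can therefore be larger or smaller than the spread of the gene itself. Over 10 alternatives the level of *Sox2* lay between 0.26 and 0.85, and the highest adjusted p from limma was 0.0145. Its lowest levels, 0.26 and 0.27, came from settings without background correction, whose levels are not on the same scale. Its detection p was 5.71e-07, 0.0011, and 0.0112, so the detection rule was missed on replicate 3 alone. These are values combined over 2 probes (explained with *Sox11*), whose sums were 1, 44, and 140 negative controls, so the dimmer probe had a p of at least 0.0235 on replicate 2 and 0.0748 on replicate 3. *Sox2* was detected when replicate 3 was left out.

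*Sox3*, an X-linked gene of the same group that is expressed in neural progenitors, had signals close to background, at 6.78, 6.62, and 6.52. It lay above the background level on replicate 1 and below it on replicates 2 and 3. Its level was -0.05 ± 0.26 (SD, n = 3), and its detection p was 0.000276, 0.170, and 0.0257. The single array below 0.01 was not repeated on the others.

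*Sox1*, the earliest marker of the committed neural plate in this group, had signals of 6.53, 6.33, and 6.29, which were below the background level on every array. Its detection p was 0.346, 0.960, and 0.909, meaning that 324, 899, and 851 of the inferred 936 negative controls were at least as bright as its single probe. The level was -0.63 ± 0.26 (SD, n = 3), and its transcript was therefore not detectable at this sensitivity, which differs from being absent.

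Group C gave high signals together with weak detection p-values. *Sox11*, which promotes the survival and differentiation of neural and mesenchymal progenitors, had log2 signals of 10.49, 10.28, and 9.83, from a mean of 58.7, 66.3, and 58.7 beads per probe. These signals were 3.80, 3.62, and 3.26 above the background levels of their arrays. The normalized level was 5.28 ± 0.21 above background (SD, n = 3), and the highest adjusted p from limma over 9 alternatives was 6.28e-05. Yet its detection p was 0.124, 0.101, and 0.0566, and the gene was detected on no array by the rule.

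*Sox4*, which acts with *Sox11* in the same progenitors, had signals of 8.82, 8.66, and 8.31, and a level of 3.47 ± 0.14 above background (SD, n = 3). Its highest adjusted p from limma over 10 alternatives was 0.000142. Its detection p was 0.00935, 0.0531, and 0.473, so replicate 1 alone passed. For both genes all 3 arrays were well above background by signal, yet neither passed the detection rule.

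The deposited detection p of a symbol with several probes is a combined value, and its construction could be read back for these genes. Symbols were counted as having 2 or 3 probes only where the values could be read as the chance of a sum of probe p-values. The sum was then recovered as a whole number of negative controls, which was a condition of the count and not a finding. The 3 probes of *Sox11* had sums of 847, 792, and 653 controls on replicates 1, 2, and 3, each control counted once for every probe that it equalled or exceeded. A sum of this size means that the dimmest probe had a p of at least 0.302, 0.282, and 0.233. Hence at least 1 of the 3 *Sox11* probes was not above background on any array, although the mean over probes was far above it. The 2 probes of *Sox4* had sums of 128, 305, and 910 controls, so the dimmer probe had a p of at least 0.0684, 0.163, and 0.486. Which transcript each probe targets was not analysed here.

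**Figure D2:**
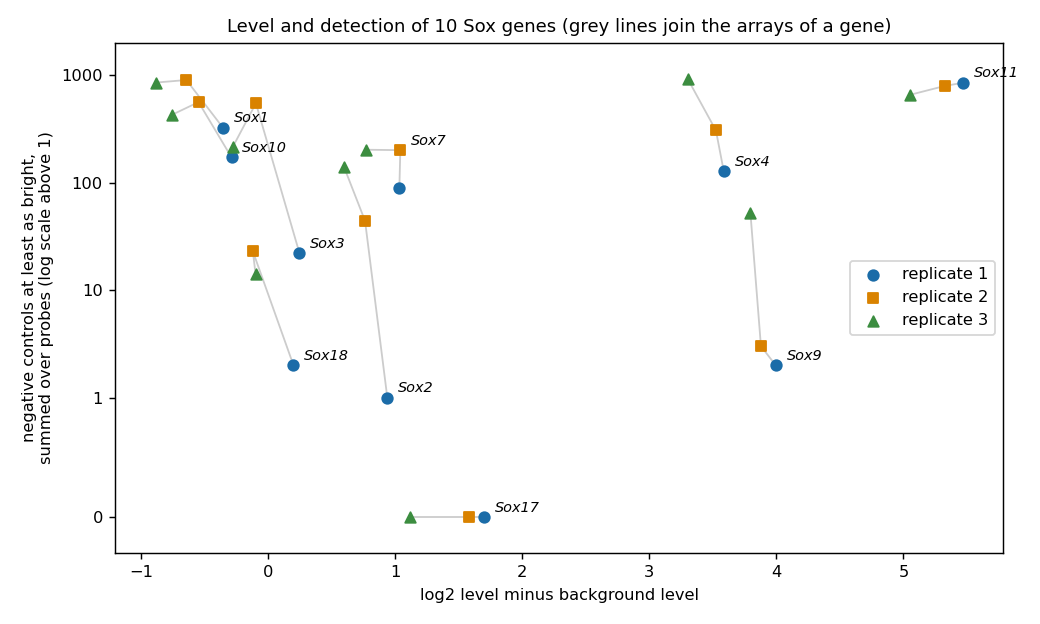
Normalized log2 level minus background level (horizontal axis) against the number of negative controls at least as bright, summed over the probes of a gene (vertical axis, logarithmic above 1), with 1 point per array for each of the 10 genes. *Sox17* has 0 controls on all 3 arrays, whereas *Sox11*, with a level of 5.28 above background, has 653 to 847.

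Sums were recovered for 5260 symbols with 2 probes and 2309 with 3, but not for 1281 others with several probes. Of the 7942 symbols called by limma, 1873 (23.6%) lacked the detection call, and 1765 of these had several probes. *Sox2*, *Sox4*, and *Sox11* are 3 of them, and whether the others have a dim probe was not examined. The share of symbols that limma called was 20.7% for 1 probe, 34.7% for 2, and 41.0% for 3, whereas the share detected was 20.9%, 20.1%, and 19.0%. Of the 10 *Sox* genes, 3 had 1 probe (*Sox1*, *Sox10*, *Sox18*), 5 had 2, and 2 had 3, and all 6 of those called by limma had several. A count of probes is the smallest number compatible with the beads and p-values, and is a lower limit.

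Upstream sequences were at hand for *Sox1*, *Sox2*, *Sox4*, and *Sox11*, 4 of the 10 members, from RefSeq (GRCm38.p6). The 250 bases before the annotated start were read, and the pair that differs most in CpG dinucleotides is shown because *Sox1* was called by neither measure and *Sox4* by limma alone. *Sox1* lies on the plus strand (chr8:12395269-12395518) and *Sox4* on the minus strand (chr13:28953700-28953949), and both are written 5′ to 3′ in the direction of transcription. Capitals mark matches on either strand to the TATA box (TATAAA), the CCAAT box (CCAAT), the GC box (GGGCGG), and a pair of SOX sites (ACAAAG as the first form and ACAATG as the second).
Sox1: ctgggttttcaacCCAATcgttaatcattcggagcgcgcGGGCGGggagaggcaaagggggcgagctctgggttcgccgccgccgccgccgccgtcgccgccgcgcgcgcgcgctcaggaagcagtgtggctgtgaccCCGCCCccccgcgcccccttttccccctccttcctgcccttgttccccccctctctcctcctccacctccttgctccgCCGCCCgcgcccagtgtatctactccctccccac
Sox4: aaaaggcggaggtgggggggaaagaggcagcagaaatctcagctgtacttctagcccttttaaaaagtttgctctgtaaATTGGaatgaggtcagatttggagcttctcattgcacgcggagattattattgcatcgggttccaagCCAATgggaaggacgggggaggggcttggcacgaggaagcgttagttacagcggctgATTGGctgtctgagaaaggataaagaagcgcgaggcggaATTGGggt

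The *Sox1* window held 29 CpG dinucleotides, 1 match to CCAAT, and 3 to GGGCGG. The *Sox4* window held 11 CpG dinucleotides and 4 matches to CCAAT. Windows of *Sox2* and *Sox11* held 27 and 17 CpG dinucleotides. TATAAA and ACAATG occurred in none of the 4 windows, whereas ACAAAG was found once, in that of *Sox2*. Among 27025 genes the same windows held TATAAA in 13.0%, CCAAT in 34.5%, GGGCGG in 32.9%, ACAAAG in 16.5%, and ACAATG in 11.0%, counted separately where matches overlapped. A match describes letters and is no evidence of a bound site.

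Of 12726 symbols with such a window, limma called 34.8%. The share was 8.21% of those with 0 to 4 CpG dinucleotides, 28.6% with 5 to 9, 49.4% with 10 to 19, 53.8% with 20 to 29, and 48.3% with 30 or more. *Sox4* and *Sox11* fall in the class of 10 to 19 and *Sox1* and *Sox2* in that of 20 to 29. *Sox1*, below background, and *Sox2*, above it, thus share a class, and the bearing of CpG content on the signals of single genes was not tested.

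In group F, *Sox17* was detected with the least ambiguity. It had log2 signals of 7.47, 7.31, and 6.94 and its detection p was 0 throughout, so both of its probes were brighter than every one of the inferred 936 negative controls on all 3 arrays. Its level was 1.46 ± 0.31 above background (SD, n = 3), with an adjusted p from limma of 4.41e-21, and over 10 alternatives the level lay between 0.58 and 1.64. The lowest levels, 0.58 and 0.60, again came from settings without background correction. *Sox17* was the only one of the 10 that stayed detected with a threshold of 0.001 (17.0% of all symbols), and the only one whose probe p-values summed to under 0.01 on every array (18.0% of all symbols).

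*Sox7*, which is expressed in primitive endoderm derivatives and in early endothelial and blood progenitors, had signals of 7.11, 7.04, and 6.81. All were above background, by 0.42, 0.38, and 0.23, and the level was 0.95 ± 0.15 (SD, n = 3), with an adjusted p from limma of 1.75e-09 and a highest value of 0.00609 over 10 alternatives. Its detection p was 0.000143, 0.00163, and 0.00168, which passed the rule. The sums over its 3 probes were 89, 200, and 202 controls, so that at least 1 probe had a p of 0.0317, 0.0712, and 0.0719 or more. The call of *Sox7* therefore does not mean that each of its probes was above background.

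*Sox18*, which acts in endothelial and lymphatic development, lay at the background level. Its signals were 6.76, 6.62, and 6.56, and its single probe had a detection p of 0.00214, 0.0246, and 0.0150, or 2, 23, and 14 controls at least as bright. Replicate 1 passed the rule, whereas replicates 2 and 3 did not, and a looser threshold of 0.05 on all arrays added both *Sox18* and *Sox2* (24.7% of all symbols passed). The level was -0.01 ± 0.18 (SD, n = 3). On replicate 2 the value came from 22 beads against 36 on each of the others.

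Group E was divided between a gene far above background and one within it. *Sox9*, which is known for cartilage, the neural crest, and the male gonad and is also expressed in the early notochord and endoderm, had signals of 9.17, 8.97, and 8.71. These exceeded background by 2.48, 2.31, and 2.13, and the level was 3.89 ± 0.10 (SD, n = 3), with a highest adjusted p from limma of 6.6e-05 over 10 alternatives. The detection p was 2.28e-06, 5.14e-06, and 0.00154. The sums over its 2 probes were 2, 3, and 52 controls, so both probes were under 0.01 on replicates 1 and 2, while on replicate 3 at least 1 probe had a p of 0.0278 or more.

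*Sox10*, which marks migrating neural crest and later glia, had signals of 6.57, 6.44, and 6.39. These lay below the background level on every array, and its detection p was 0.183, 0.598, and 0.456. The level was -0.53 ± 0.23 (SD, n = 3). Its probe was read from 67, 67, and 64 beads, against array medians of 44, 43.5, and 43.

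**Figure D3:**
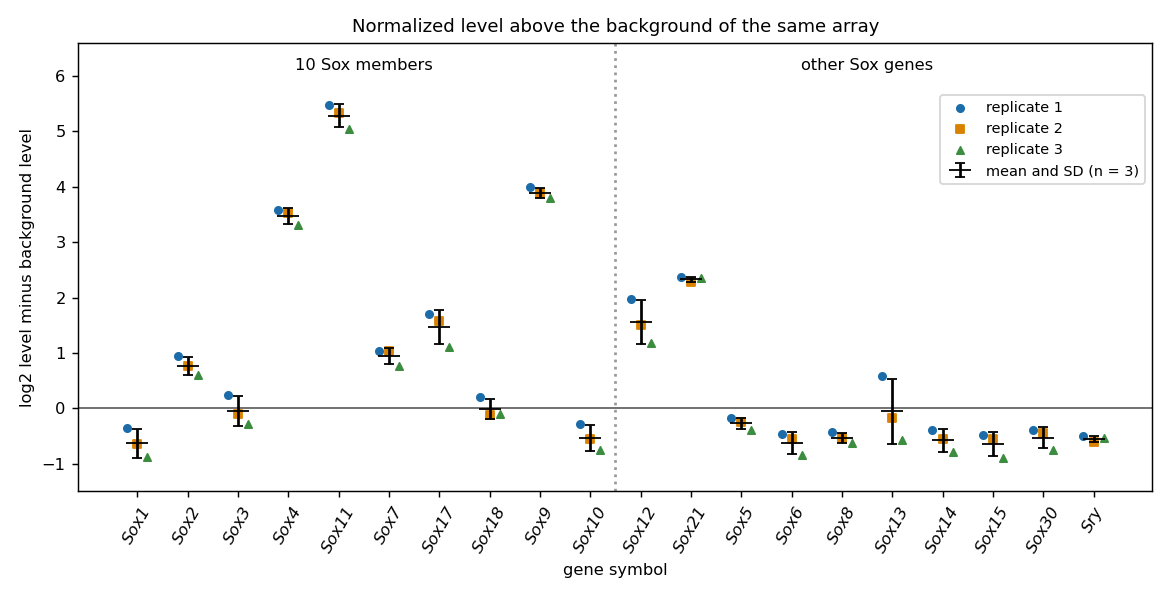
Normalized log2 level minus the background level of the same array (vertical axis) for the 10 *Sox* members and the other *Sox* genes (horizontal axis), with points for single arrays and black bars for the mean and SD of 3 arrays. The members called by limma have means from 0.76 (*Sox2*) to 5.28 (*Sox11*), and of the other genes *Sox12* (1.55) and *Sox21* (2.33) stand above 0 on every array.

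The rest of the family was largely at background, as were most symbols on the arrays. Of 10 further genes, *Sry*, *Sox5*, *Sox6*, *Sox8*, *Sox12*, *Sox13*, *Sox14*, *Sox15*, *Sox21*, and *Sox30*, 0 were detected on all 3 arrays (20.6% of all symbols). On at least 1 array 3 passed (33.0% of all symbols), and the limma test called 2 (25.7%). *Sox12*, the third gene of group C, had signals of 7.63, 7.26, and 6.97 and a level of 1.55 ± 0.40 (SD, n = 3), and its detection p of 0.00251, 0.00365, and 0.0145 missed the rule on replicate 3 alone. *Sox21*, a group B2 gene that counteracts group B1 factors in neural progenitors, had signals of 7.89, 7.74, and 7.63 and a level of 2.33 ± 0.05 (SD, n = 3). Before the background level was subtracted, its SD was 0.21. Its 3 probes had sums of 145, 514, and 758 controls, so it resembled *Sox4* and *Sox11* in having at least 1 probe at background on each array. *Sox13* passed on replicate 1 alone, with a level of -0.05 ± 0.59 (SD, n = 3). The other 7 had mean levels between -0.64 (*Sox15*) and -0.27 (*Sox5*) and were detected on no array. By limma each of the 3 group C genes on the array was thus above background, against 1 of 3 in group B1 and 2 of 3 in group F. In group E it was 1 of 3 (*Sox8*, *Sox9*, *Sox10*), where 25.7% of all symbols were called. By the detection rule no gene of group C or group B1 passed, and only *Sox7*, *Sox17*, and *Sox9* did. All 3 group C genes have several probes, and limma called a larger share of such symbols than of those with 1 probe. The median level was 0.85 for the 10 members and -0.53 for the other 10, where all symbols had a median of -0.47. The table also holds the symbol *Sox16*, which matches no current gene in RefSeq, with signals of 6.44, 6.45, and 6.32 and no detection.

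As deposited, all 10 members had their highest signal on replicate 1 and their lowest on replicate 3. The difference between these arrays ranged from 0.18 (*Sox10*) to 0.65 (*Sox11*) on the log2 scale. It also exceeded the error over beads, which was 2.29 (*Sox18*) to 4.53 (*Sox17*) times smaller than the difference in linear signal. This error describes the beads of 1 array and not the biological spread. The same order held for 66.6% of all symbols and 79.2% of detected symbols, and the arrays had medians of 6.57, 6.51, and 6.42, so the order was not particular to *Sox* genes. After background correction and quantile normalization, 1 of the 10 kept it (*Sox11*, by 0.02 between replicates 1 and 3), against 17.4% of all symbols.

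The spread that remained was small. The median SD over 3 arrays went from 0.16 to 0.08 in the 10 members, and stayed at 0.10 in all symbols. In the 6 members called by limma it went from 0.25 to 0.07, against 0.25 to 0.17 in all symbols called by limma. All 6 are averages over several probes, whereas the compared symbols include many with 1 probe. The SD was not compared at equal numbers of probes. Of the 6 members above background by limma, normalized SDs were between 0.01 (*Sox11*) and 0.11 (*Sox9* and *Sox17*). These SDs were taken before the background level was subtracted, unlike those printed with each level. *Sox9* was highest on replicate 3, by 0.20 over replicate 1, and *Sox17* was lowest there, by 0.19 below replicate 1. With 1 array on each side these differences have no replicate check.

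**Figure D4:**
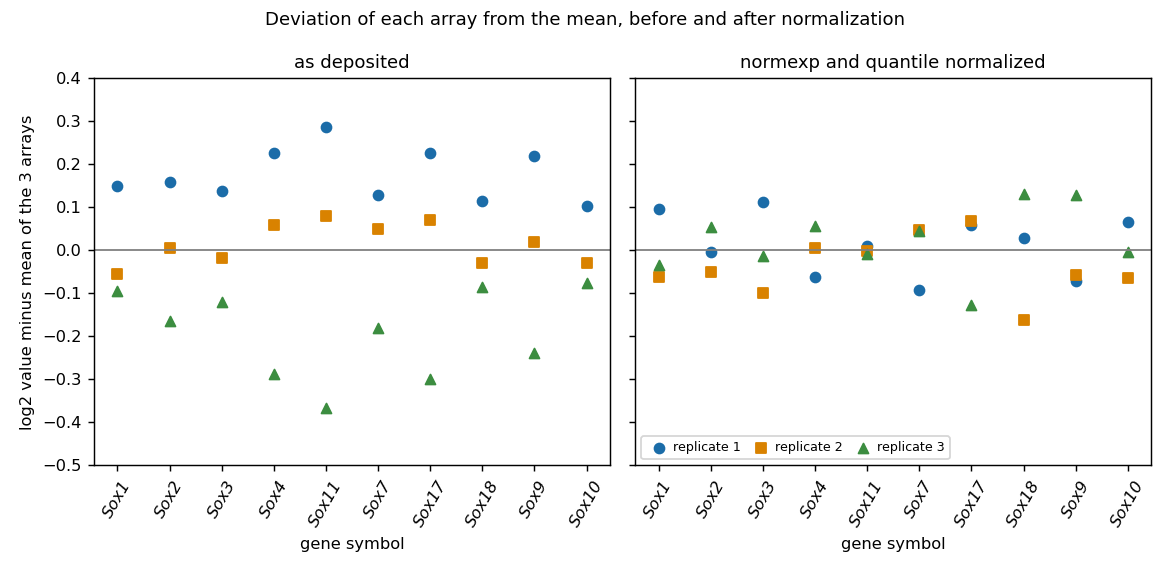
Deviation of each array from the mean of the 3 arrays (vertical axis, log2) for the 10 *Sox* genes (horizontal axis), as deposited on the left and after normexp and quantile normalization on the right. On the left replicate 3 is lowest for every gene, and on the right for 2 of 10, *Sox11* and *Sox17*.

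On single arrays, a detection p under 0.01 was reached by 7 members (replicate 1), 4 members (replicate 2), and 3 members (replicate 3), where 29.2%, 26.6%, and 23.3% of all symbols passed. *Sox2* on 2 arrays, and *Sox3*, *Sox4*, and *Sox18* on 1 array each, made up the difference. *Sox1* and *Sox10* passed on no array, nor did *Sox11*, whose sums over probes are given above.

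The count of detected members depended on the rule, as did the share of all symbols. On at least 2 arrays 4 members passed (with *Sox2*) against 25.6% of symbols, and on at least 1 array 7 passed (all but *Sox1*, *Sox10*, and *Sox11*) against 33.0%. Without replicate 1, 2, or 3 the members were 3, 3, and 4, and the shares of symbols 21.1%, 21.6%, and 24.1%. The same 6 members that limma called had a deposited signal above the background level on all 3 arrays, as did 26.2% of symbols. The normalization keeps the order of symbols within an array, and the background is set by the same symbol. The rule is therefore no separate check on the limma count.

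The 6 members called by limma were also called in 9 of 10 other settings. The shares of all symbols were 25.0% with quantile normalization alone, 23.4% with median scaling or no normalization, 25.5% with an offset of 50, 24.8% with a trended and robust prior, and 27.2% with the background set at the 99th percentile of undetected symbols. They were 24.3%, 24.0%, and 28.0% without replicate 1, 2, or 3. When only symbols with a detection p under 0.05 on at least 1 array were tested, 5 members were called against 55.9% of those symbols, *Sox11* being left out of that test.

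Genes that work with the *Sox* members or mark the tissues in which they act were counted by the same rules, to be read against the 20.6% of all symbols detected and the 25.7% called by limma. Shares of 3 in 12 genes (25.0%) lie near these. In the list of group B1 partners and pluripotency genes, 5 of 10 were detected and 6 were called by limma. *Pou5f1*, which encodes the POU partner of SOX2 on DNA, had signals of 8.73, 8.58, and 8.13 and a level of 3.33 ± 0.21 (SD, n = 3). *Lin28a* (listed as *Lin28*) had a level of 2.79 ± 0.58 and *Dppa5a* (listed as *Dppa5*) one of 1.71 ± 0.15. The level of *Sox2* itself stood beside these at 0.76 ± 0.17.

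Of 12 neural plate genes 3 were detected and 5 called by limma, and those detected included *Gbx2* (6.54 ± 0.31) and *Otx2* (4.48 ± 0.11), which mark posterior and anterior neural tissue. The mean level of 6 genes lay below background, among them *Six3* (-0.37) and *Pax6* (-0.59) of the forebrain. Of 12 genes of the neural crest and its border, 3 were detected and 6 called by limma. *Msx1* had a level of 4.38 ± 0.19, *Twist1* of 1.61 ± 0.13, and *Snai2* of 1.09 ± 0.41, and all 3 are also expressed outside the crest. The mean level of 6 genes lay below background, as did that of *Sox10* (-0.53), among them *Pax3* (-0.62), which specifies the crest at the neural border, and *Foxd3* (-0.47), an early crest factor.

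The list of definitive endoderm, the tissue of *Sox17*, had 9 of 12 genes detected and 8 called by limma. Those detected included *Cldn6* (6.46 ± 0.40), *Trh* (4.91 ± 0.39), and *Gata6* (3.97 ± 0.23), whereas *Foxa2* (-0.34) and *Gata4* (-0.46) were below background. *Sox17* and *Sox7* are also expressed in visceral endoderm, and 13 of 14 markers of that tissue were detected and 14 called by limma. None of these markers was at background on all arrays, and their summed level was 8.86, 9.02, and 8.08 on replicates 1, 2, and 3. This is the log2 of the sum of their linear levels, so the brightest markers weigh most. The level of *Sox17* was 1.70, 1.58, and 1.11 and that of *Sox7* 1.03, 1.04, and 0.77, so the 3 measures were lowest on replicate 3. The median level of all symbols was lowest there too, at -0.29, -0.42, and -0.69, because the background level that is subtracted was 4.68, 4.81, and 5.08. Before that subtraction the normalized values of *Sox7* were 5.71, 5.85, and 5.85 and those of *Sox17* 6.38, 6.39, and 6.19. For the markers no sum before the subtraction was computed. Among the brightest of them, normalized values were 11.84, 11.83, and 10.66 for *Spink3* and 11.12, 11.36, and 10.40 for *Ttr*. These were lowest on replicate 3 before the subtraction too, whereas *Apoa1* was lowest on replicate 1, at 11.18, 11.70, and 11.35. The part of visceral endoderm in the *Sox17* and *Sox7* signals was not tested. Of 15 genes listed for extraembryonic ectoderm, 5 were detected and 7 called by limma. Those detected included *Cdx2* (4.55 ± 0.27), *Rhox5* (4.37 ± 0.80), and *Ets2* (3.54 ± 0.41). The mean level of 8 lay below background, among them *Elf5* (-0.51) and *Eomes* (-0.54), which maintain trophoblast progenitors. The tissue from which the detected genes of this list and of the definitive endoderm list came was not tested.

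Of 12 endothelial genes 3 were detected and 4 called by limma. *Etv2* (listed as *Etsrp71*), which specifies endothelial and blood progenitors, had a level of 4.45 ± 0.29, *Egfl7* of 3.34 ± 0.29, and *Tal1* of 1.22 ± 0.03. The mean level of 6 others lay below background, among them *Kdr* (-0.37), which encodes the main receptor for VEGF, and *Cdh5* (-0.49), which encodes the cadherin of endothelial junctions. Median levels were 1.13 for the group B1 partners, -0.14 for neural plate, 0.06 for neural crest, 0.82 for definitive endoderm, -0.15 for endothelium, 3.67 for visceral endoderm, and -0.08 for extraembryonic ectoderm, against -0.47 for all symbols.

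**Figure D5:**
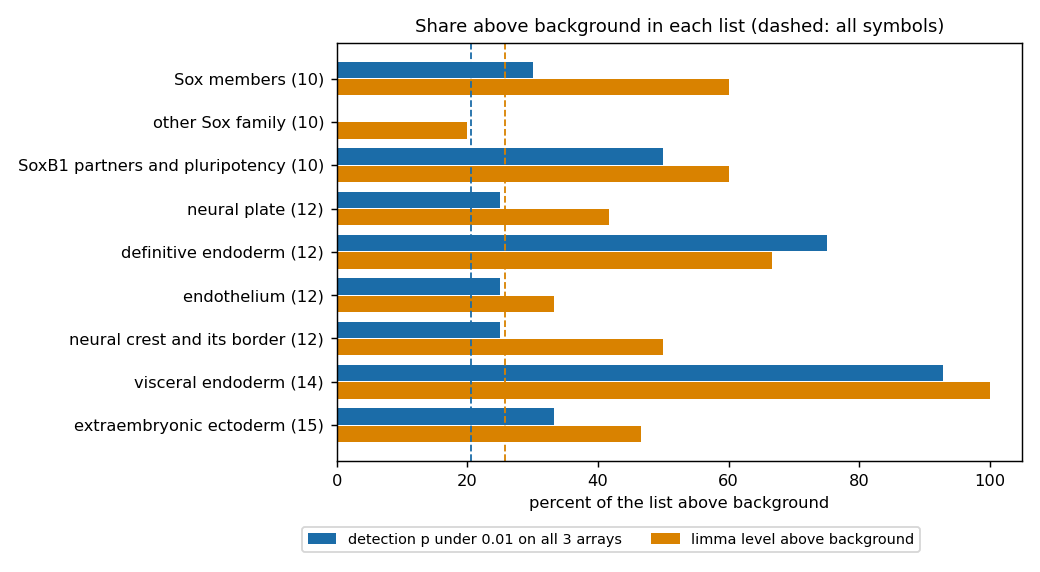
Percent of each gene list above background (horizontal axis) by detection p under 0.01 on all 3 arrays (blue) and by limma (orange), with the number of genes in brackets and the shares over all symbols, 20.6% and 25.7%, as dashed lines. The 10 *Sox* members reach 3 and 6 genes, and the other *Sox* genes 0 and 2.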

How the data were processed

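Total RNA of the embryonic region of wild-type EHF embryos was measured on 3 arrays, assigned to replicates through the sample titles. The authors deposited log2 signals averaged per symbol, with no normalization between arrays, bead numbers with the standard error of the signal over beads, and detection p-values. The submitters' notes name Partek, and the genome build is not given in the sources used here. The members and lists were chosen with earlier results of these data known. The named genes were all members, all other *Sox* genes, and up to 3 detected genes of each list with the highest levels, of which 1 is not reported here. Listed genes below background were picked as examples after their values were seen. RefSeq (GRCm38.p6) served to match outdated symbols.

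A symbol counted as 1, 2, or 3 probes where the number of beads and the recovered sum of p-values were whole (tolerance 0.02 of 1 in 936). In limma 3.58.1 (R 4.3.3), the normexp correction was fitted to symbols with 1 probe through their detection p, followed by an offset of 16 and quantile normalization. The level above background was tested one-sided over 30854 symbols (lmFit with an intercept, eBayes, Benjamini-Hochberg, threshold 0.05). A single standard error of 0.15 resulted for all genes, so single adjusted p-values look too precise and their range over alternatives is given. The number of arrays limits the precision. Python 3.11.15, numpy 2.4.6, pandas 2.3.3, and scipy 1.17.1 were used.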

Additional observations from a re-analysis of the deposited data

How the results depend on the processing

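The detection count was 3 members, beside 20.6% of all symbols. It became 5 with a threshold of 0.05 (24.7% of symbols), 1 with 0.001 (17.0%), and 4 where 2 arrays sufficed (25.6%). It was 7 where 1 array sufficed (33.0%) and 6 with limma (25.7%). Alternatives chosen after seeing the data gave 1 (summed p under 0.01 on all arrays, 18.0% of symbols) and 6 (signal above the background level on all arrays, 26.2%). The latter is no separate check on limma. Without a replicate the detection count was 3 to 4 (21.1% to 24.1% of symbols), *Sox2* being added without replicate 3. The limma count of 6 stayed at 6 in 9 of 10 alternatives and became 5 when only symbols with a detection p under 0.05 on at least 1 array were tested, because *Sox11* then went untested. All 97 tests of single members under the alternatives kept their side of the adjusted p threshold, although the levels of *Sox3* (-0.19 to 0.07) and *Sox18* (-0.11 to 0.08) crossed the background level. Counts of the other *Sox* genes are to be read against the same shares of all symbols. Those detected numbered 0, and 1 with a threshold of 0.05 or where 2 arrays sufficed. They numbered 3 where 1 array sufficed, 2 with limma, and 0 to 1 without a replicate, *Sox12* being added without replicate 3. The listed partner and tissue genes detected numbered 41 (20.6% of all symbols). They ranged from 35 with a threshold of 0.001 (17.0%) to 56 where 1 array sufficed (33.0%), so they rose and fell with the share of all symbols. The median SD of the members, 0.16 as deposited, was 0.09 after centring on medians, 0.08 after normexp and quantile normalization, and 0.04 with quantile normalization alone, each of which removes differences between arrays by construction, and 0.11 to 0.22 without a replicate. No paired analysis was possible because all arrays belong to one group. The sensitivity is set by how far signal exceeds background, and *Sox3* and *Sox18* lay within 0.05 of the background level on the log2 scale.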
